A study of Mus musculus with 6 samples.

Results

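This account covers 10 genes of the synapse in mouse retina: Dlg4, the scaffold of the postsynaptic side; Slc17a7, Syp, Vamp2 and Syt1 of the synaptic vesicle; Snap25, Stx3 and Cplx3 of vesicle fusion; and Bsn and Ctbp2 of the ribbon and the active zone. They were taken by name, through the RefSeq transcript that each array probe carries in the files. The names were chosen with earlier results of these data known. The 10 genes had 12 probes and 21 spots, among 39429 probes and 43020 spots that are not controls, and they are 10 of 24060 genes that entered the tests. None of the members was lost to the filter on dim probes: each of their 12 probes was above background in both dye channels on all 6 arrays. No member spot was saturated or left out as an outlier.

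The study used 6 two-colour Agilent arrays, of which 3 carry RNA of retinas given SH-42 and 3 RNA of retinas given SH-80, with a control on the same array each time. By the labels, the animals were adult male C57BL/6 mice, 12 per group, given 1 µM of a compound, or of phosphate-buffered saline in the control group, by injection into the vitreous of the right eye. Retinas were taken 7 days later and pooled by 4, which would give 3 pools per group. No genotype other than the strain is named, and both compounds are known here by their codes only. The labels do not say whether the 6 arrays had control pools of their own, and the p-values below measure the spread between arrays, which may share RNA.

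By the labels, Cy3 (green) carries the compound's RNA and Cy5 (red) the control's, on every array, with no exchange of dyes. The value table that the authors deposited runs the other way, Cy5 over Cy3, so that the direction against control is not settled. All log ratios here are log2 of Cy3 over Cy5, and each sign below turns if the treated RNA was in Cy5. With no exchange of dyes, a dye effect of a probe stays in its ratio against control, while one that all arrays share drops out of SH-42 minus SH-80. SH-42 replicates 1 and 2 lay on one slide, and SH-42 replicate 3 lay with the 3 SH-80 arrays on the second slide.

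Photoreceptors and bipolar cells release glutamate without pause, from synapses in which a plate-like ribbon holds vesicles above the active zone. Amacrine cells use conventional synapses without ribbons. A vesicle fuses when a SNARE protein on the vesicle (synaptobrevin, from Vamp2) winds together with SNARE proteins of the plasma membrane (Snap25 and a syntaxin), while complexins bind the assembled complex and synaptotagmins sense calcium. Ribbon synapses use syntaxin 3 (Stx3) in place of syntaxin 1, and the retina-enriched complexin 3 (Cplx3) in place of the forms common in brain. The ribbon itself is built of RIBEYE, a product of Ctbp2 that shares most of its sequence with the transcriptional corepressor CtBP2, and Bassoon (Bsn) anchors it to the membrane.

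The arrays were alike in depth but not in their log ratios. The share of spots above background was 58.3% to 63.1% for Cy3 and 70.9% to 76.7% for Cy5. Across all genes, r of log ratios was -0.16 to 0.163 between SH-42 replicate 1 and any other array, and 0.471 to 0.866 among the remaining 5 (a description across genes, which are not independent). The SD of log ratios ranged from 0.157 on SH-42 replicate 2 to 0.498 on SH-42 replicate 1. Defining markers of the labelled tissue were present: all measured rod (15), bipolar (15), amacrine (12), ganglion cell (12) and Müller glia (10) markers were above background in both channels on every array. Because SH-42 replicate 1 stands apart, the members' SH-42 estimates and the counts of calls are also given without it.

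Promoter sequence was at hand for 8 of the 10 genes, in 12 windows from 250 bases before to 50 after an annotated start (RefSeq, GRCm38.p6). Vamp2 and Snap25 had no entry. The core TAATCC, to which the homeodomain factors CRX and OTX2 of photoreceptors and bipolar cells bind, was searched on both strands and was found in 4 of the 12 windows, 1 each for Ctbp2, Dlg4, Stx3 and Syp. Of all 32851 windows of the same length, 7.06% hold it. These 4 windows are shown because they are the members' windows with that core, which is in capitals along with any match of the GC box GGGCGG; a match on the opposite strand shows as its reverse complement.
Ctbp2, minus strand, chr7:133015198-133015497: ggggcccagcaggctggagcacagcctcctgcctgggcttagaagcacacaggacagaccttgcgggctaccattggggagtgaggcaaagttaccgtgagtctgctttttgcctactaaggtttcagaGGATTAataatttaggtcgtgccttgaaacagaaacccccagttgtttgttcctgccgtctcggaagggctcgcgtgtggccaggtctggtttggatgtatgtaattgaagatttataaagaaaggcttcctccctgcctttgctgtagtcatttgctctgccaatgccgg
Dlg4, plus strand, chr11:70016953-70017252: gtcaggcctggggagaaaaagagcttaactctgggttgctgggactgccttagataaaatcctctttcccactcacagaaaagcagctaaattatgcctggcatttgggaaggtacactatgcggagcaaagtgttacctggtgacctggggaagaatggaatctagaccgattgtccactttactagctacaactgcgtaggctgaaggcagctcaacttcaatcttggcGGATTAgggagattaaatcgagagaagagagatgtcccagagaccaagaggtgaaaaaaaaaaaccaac
Stx3, minus strand, chr19:11819354-11819653: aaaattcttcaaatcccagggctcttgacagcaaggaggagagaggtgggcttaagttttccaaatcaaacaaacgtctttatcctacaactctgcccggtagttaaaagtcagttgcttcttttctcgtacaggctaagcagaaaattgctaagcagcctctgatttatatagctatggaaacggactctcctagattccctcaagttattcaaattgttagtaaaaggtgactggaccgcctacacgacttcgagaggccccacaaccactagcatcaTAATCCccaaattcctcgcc
Syp, plus strand, chrX:7638330-7638629: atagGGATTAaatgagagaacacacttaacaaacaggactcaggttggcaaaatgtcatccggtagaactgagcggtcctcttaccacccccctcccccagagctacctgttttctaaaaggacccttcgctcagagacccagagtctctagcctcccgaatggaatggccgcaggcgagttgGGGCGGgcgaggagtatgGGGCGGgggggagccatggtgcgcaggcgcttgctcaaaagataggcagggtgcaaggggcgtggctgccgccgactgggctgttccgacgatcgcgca
The core began 121 bases before the start in Ctbp2, 19 before it in Dlg4 and 246 before it in Syp, in each on the strand opposite to the gene, and lay in the 50 bases after the start in Stx3, on the gene's own strand. The GC box, the site of the Sp1 family, was found in 4 windows, those of Syp (2 matches), Slc17a7 (3 matches, 2 of which overlap), Syt1 (1 match) and a further start of Dlg4 (2 matches), against 35.7% of all windows. The cAMP response element TGACGTCA, which reads the same on both strands, and TTCAGCACC, part of the element bound by the neuronal repressor REST, had no match in the 12 windows, against 1.79% and 0.371% of all windows. A match describes letters in the window and is not a measured binding site.

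All 10 genes shared the same array at the top of their log ratios. Each had its highest log ratio, and each its lowest Cy5 signal, on SH-42 replicate 1. Across all genes, 36.8% had their highest log ratio and 43.2% their lowest Cy5 signal there. The mean of the 10 log ratios was 0.55 on that array, against -0.05 and 0.04 on SH-42 replicates 2 and 3, and -0.07, 0.02 and -0.07 on the SH-80 arrays. On the other 5 arrays the means of both compounds interleaved, with no gap between them. In bulk RNA, fewer cells of a type and less RNA per cell cannot be told apart.

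**Figure D1:**
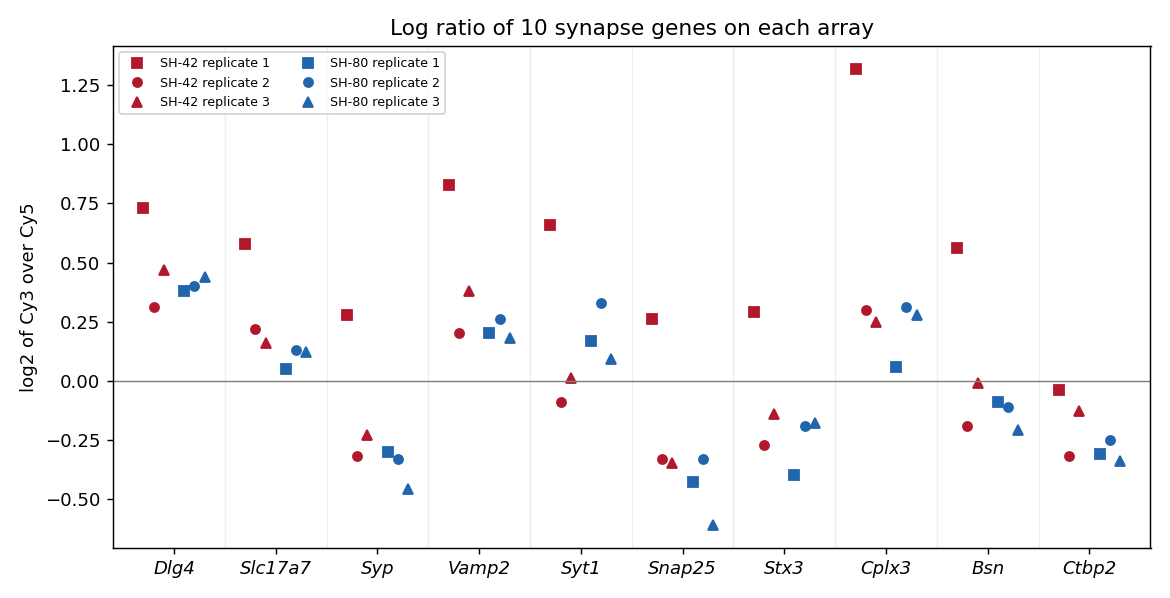
Log2 of Cy3 over Cy5 of each of the 10 genes (brightest probe) on each array, with the 3 SH-42 arrays in red to the left of the 3 SH-80 arrays in blue and the replicate shown by the marker. The red square of SH-42 replicate 1 is the highest point of all 10 genes, from -0.04 for Ctbp2 to 1.32 for Cplx3.

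Dlg4 encodes PSD-95, which clusters receptors and channels at synapses and in the mouse retina is also found in photoreceptor terminals. Its log ratio was 0.73, 0.31 and 0.47 on SH-42 replicates 1 to 3 and 0.38, 0.40 and 0.44 on SH-80 replicates 1 to 3. Every array of both compounds was thus above 0, and the 3 SH-80 values lay inside the SH-42 range. In the model, Dlg4 was higher in Cy3 than in Cy5 on SH-80 arrays by 0.41 ± 0.084 (log2, SE, n = 3 arrays; adjusted p = 0.0338), a ratio of 1.33. On SH-42 arrays the estimate was 0.50 ± 0.084 and missed the threshold of 0.05 (adjusted p = 0.0799). Without SH-42 replicate 1 it was 0.39 ± 0.0632 with an adjusted p of 0.0467, in a range of 0.0136 to 0.751 over 20 alternative settings.

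Slc17a7 encodes VGLUT1, the transporter that fills vesicles of photoreceptors and bipolar cells with glutamate. It had log ratios of 0.58, 0.22 and 0.16 on the SH-42 arrays, against 0.05, 0.13 and 0.12 on SH-80 arrays. It was the single member whose SH-42 and SH-80 log ratios did not overlap, a separation seen in the same direction for 8.08% of all genes and in the opposite one for 5.44%. Neither ratio against control passed the test (0.32 ± 0.0889 for SH-42, adjusted p = 0.146, and 0.10 ± 0.0889 for SH-80, adjusted p = 0.463). The SH-42 estimate was 0.19 ± 0.0571 when SH-42 replicate 1 was left out (adjusted p = 0.137).

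Vamp2, which encodes the vesicle SNARE synaptobrevin 2, had log ratios of 0.83, 0.20 and 0.38 on the SH-42 arrays, against 0.20, 0.26 and 0.18 on SH-80 arrays. All 6 were above 0, with SH-42 replicate 1 far above the rest and the other arrays of both compounds interleaved. The estimates were 0.47 ± 0.116 for SH-42 (adjusted p = 0.136) and 0.21 ± 0.116 for SH-80 (adjusted p = 0.241). Leaving out SH-42 replicate 1 gave 0.29 ± 0.0659 for SH-42 (adjusted p = 0.0851) and brought the SH-80 estimate past the threshold (adjusted p = 0.0262).

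Syp encodes synaptophysin, an abundant protein of the vesicle membrane. Its log ratios were 0.28, -0.32 and -0.23 on the SH-42 arrays, against -0.30, -0.33 and -0.46 on SH-80 arrays. SH-42 replicate 1 was the one array above 0. The SH-42 estimate was -0.09 ± 0.118 (adjusted p = 0.658) and the SH-80 estimate -0.36 ± 0.118, which missed the threshold (adjusted p = 0.0847). Leaving out SH-42 replicate 1 gave -0.27 ± 0.0662 for SH-42 (adjusted p = 0.0967), and Syp was then called for SH-80 (adjusted p = 0.00904).

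Syt1 encodes synaptotagmin 1, a calcium sensor of fast release. It gave 0.66, -0.09 and 0.01 on the SH-42 arrays, against 0.17, 0.33 and 0.09 on SH-80 arrays. Here, unlike the other members, SH-42 replicates 2 and 3 were both below all SH-80 arrays while SH-42 replicate 1 was above them. The mean estimates were 0.19 ± 0.148 for SH-42 (adjusted p = 0.439) and 0.20 ± 0.148 for SH-80 (adjusted p = 0.382). With SH-42 replicate 1 left out, the SH-42 estimate was -0.04 ± 0.0765 (adjusted p = 0.754) and Syt1 was called for SH-80 (adjusted p = 0.0498).

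Snap25, a SNARE gene of the plasma membrane, had log ratios of 0.26, -0.33 and -0.35 on the SH-42 arrays, against -0.43, -0.33 and -0.61 on SH-80 arrays. Of the 6 arrays, 5 lay below 0. The estimate was -0.14 ± 0.13 for SH-42 (adjusted p = 0.529) and -0.46 ± 0.13 for SH-80, the lowest of the 10 members there, with an adjusted p of 0.0624. The SH-42 estimate was -0.34 ± 0.078 without SH-42 replicate 1 (adjusted p = 0.0877), and Snap25 was then called for SH-80 (adjusted p = 0.00833).

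Stx3 is the one member with several probes. Its brightest probe, for transcript NM_001025307, gave 0.29, -0.27 and -0.14 on the SH-42 arrays, against -0.40, -0.19 and -0.18 on SH-80 arrays. It passed neither test against control (-0.04 ± 0.115 for SH-42, adjusted p = 0.838, and -0.26 ± 0.115 for SH-80, adjusted p = 0.162). Leaving out SH-42 replicate 1 gave -0.21 ± 0.0769 for SH-42 (adjusted p = 0.178), and this probe was then called for SH-80 (adjusted p = 0.0232). A second probe, for NM_152220, is printed 10 times on each array and gave mean log ratios of 0.42, -0.07 and -0.01 on the SH-42 arrays, against -0.07, 0.19 and 0.07 on SH-80 arrays. Its 10 spots on an array had an SD of 0.0238 to 0.0551, far below its range of 0.487 across arrays, so that the shift on SH-42 replicate 1 was seen in all 10 spots (0.35 to 0.52). The dimmest probe, also for NM_152220, went the opposite way on that array, at -0.70, against -0.10 to 0.13 on the other 5. The probes of Stx3 thus disagree in sign on SH-42 replicate 1, and no probe passed a test when all 29432 probes were tested one by one (adjusted p from 0.161 to 0.987 against control).

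**Figure D2:**
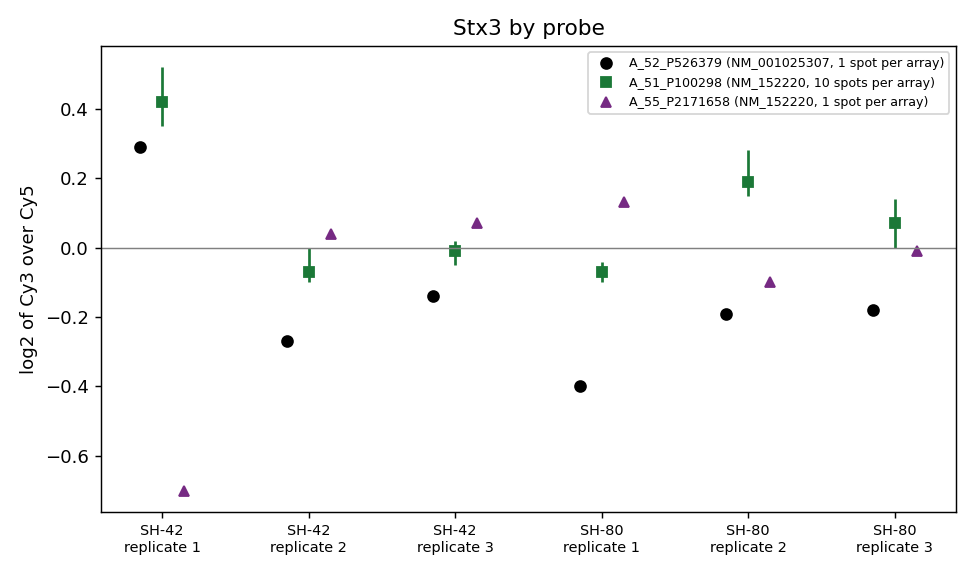
Log2 of Cy3 over Cy5 of the 3 Stx3 probes on each array, SH-42 arrays to the left of SH-80 arrays. The vertical bars run from the lowest to the highest of 10 spots of the replicated probe, and 2 of 3 probes are highest on SH-42 replicate 1 while the third is lowest there, at -0.70.

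Cplx3 had the widest range of the members. Its log ratio was 1.32 on SH-42 replicate 1, against 0.30 and 0.25 on SH-42 replicates 2 and 3 and 0.06, 0.31 and 0.28 on SH-80 arrays. The last 5 values cover both compounds and interleave, and all 6 were above 0. The model gave 0.62 ± 0.207 for SH-42 (adjusted p = 0.165) and 0.22 ± 0.207 for SH-80 (adjusted p = 0.486). Without SH-42 replicate 1 the SH-42 estimate was 0.28 ± 0.0768 (adjusted p = 0.121), close to that of SH-80, which was then called (adjusted p = 0.0371).

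Bsn had log ratios of 0.56, -0.19 and -0.01 on the SH-42 arrays, against -0.09, -0.11 and -0.21 on SH-80 arrays. Again SH-42 replicate 1 was the one array above 0. Its estimates were 0.12 ± 0.137 for SH-42 (adjusted p = 0.596) and -0.14 ± 0.137 for SH-80 (adjusted p = 0.508), and the SH-42 estimate was -0.10 without SH-42 replicate 1.

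Ctbp2 had the narrowest range and was the one member below 0 on all 6 arrays, at -0.04, -0.32 and -0.13 on the SH-42 arrays, against -0.31, -0.25 and -0.34 on SH-80 arrays. In the model it was lower in Cy3 than in Cy5 on SH-80 arrays by -0.30 ± 0.0691 (adjusted p = 0.0407), a ratio of 0.813. The SH-42 estimate was -0.16 ± 0.0691 (adjusted p = 0.222), and -0.23 ± 0.0687 without SH-42 replicate 1 (adjusted p = 0.137). The probe is paired with transcript NM_009980, and whether it reads the ribbon form, the corepressor form or both was not tested.

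Over the members, 0 of 10 passed the test for SH-42 against control, where 0.599% of all 24060 genes did, and 4 had an unadjusted p under 0.05, against 23.4% of all genes. For SH-42 over all genes, 0.054% were called higher and 0.544% lower in Cy3. For SH-80 against control 2 of 10 passed, against 14.6% of all genes, and 4 had an unadjusted p under 0.05, against 35.5%. The 2 were Dlg4, called higher in Cy3 as 4.61% of all genes were, and Ctbp2, called lower as 10% were. A share of 2 in 10 is near that background. Both calls depend on the arrays used and on the settings of the model. Leaving out any one SH-80 array ended both, and leaving out SH-42 replicate 3 ended that of Ctbp2. Both also ended with slide as a fixed block (0.43 ± 0.132, adjusted p = 0.369 for Dlg4, and -0.33 ± 0.108, adjusted p = 0.374 for Ctbp2), with scale between arrays and with a trended, robust variance prior. Slide is partly confounded with compound, since all 3 SH-80 arrays lay on one slide. Over 20 settings the adjusted p ran from 0.00552 to 0.555 for Dlg4 and from 0.0108 to 0.433 for Ctbp2. Without SH-42 replicate 1, 8 of 10 members passed for SH-80, 4 higher (Dlg4, Vamp2, Syt1, Cplx3) and 4 lower (Ctbp2, Syp, Snap25, Stx3), while 38.8% of all genes passed as well.

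The sign against control differed between the members. The estimate was above 0 for 6 of 10 members for SH-42 (43% of all genes) and for 5 of 10 for SH-80 (44.4%). Dlg4, Slc17a7, Vamp2 and Cplx3 were above 0 on all 6 arrays, as 13.1% of all genes were, and Ctbp2 was below 0 on all 6, as 20.9% were. These signs are relative to the loess curve of each array. With median centring in its place the median of all genes moved to -0.25 for SH-42 and -0.15 for SH-80. That of the members moved further, from 0.16 to -0.40 for SH-42 and from -0.02 to -0.30 for SH-80. Vamp2 (-0.15 and -0.14), Slc17a7 (-0.17 and -0.19) and, for SH-80 alone, Cplx3 (-0.08) came out below 0, while Dlg4 stayed above 0 and Ctbp2 below. Over all settings the lowest SH-42 estimates were -0.81 for Snap25, -0.74 for Ctbp2 and Syp and -0.59 for Stx3.

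The spread of the members lay in the Cy5 channel. Between arrays, log2 signals correlated across all genes at r from 0.9966 to 0.9991 in Cy3 and from 0.9618 to 0.9979 in Cy5. For all 10 the SD over 6 arrays was larger in Cy5 than in Cy3, as it was for 78.6% of all genes. The members' SD of log2 Cy3 signal ran from 0.0226 (Dlg4) to 0.118 (Snap25), with a median of 0.0383, against 0.0683 over all genes. Their SD of log2 Cy5 signal ran from 0.126 (Ctbp2) to 0.459 (Cplx3), with a median of 0.234, against 0.142 over all genes. By these medians, Cy3 signals of the members were closer between arrays than those of all genes, and their Cy5 signals were wider apart. Snap25 and Bsn (0.0871) went the other way in Cy3, and Ctbp2 did so in Cy5. Genes of like brightness were not compared.

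Cplx3 shows the contrast best. Its log2 Cy3 signal was 12.96, 12.95 and 12.98 on the SH-42 arrays, against 12.98, 12.98 and 13.02 on SH-80 arrays. Its log2 Cy5 signal was 11.64, 12.65 and 12.73 on the SH-42 arrays, against 12.92, 12.66 and 12.74 on SH-80 arrays. Nothing but the Cy5 signal of SH-42 replicate 1 stood apart, 2.13-fold below the median of the other 5 arrays.

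The Cy5 signal of SH-42 replicate 1 was 1.8-fold below the median of the other 5 arrays for Snap25 (log2 14.68 against 15.35 to 15.69) and likewise 1.8-fold for Bsn (10.48 against 11.22 to 11.46). The distance was 1.51-fold for Syp, 1.46-fold for Stx3, 1.43-fold for Syt1, 1.42-fold for Vamp2, 1.3-fold for Slc17a7 and 1.29-fold for Dlg4. Ctbp2 was least far off, 1.17-fold below, at 13.80 against 13.83 to 14.09.

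**Figure D3:**
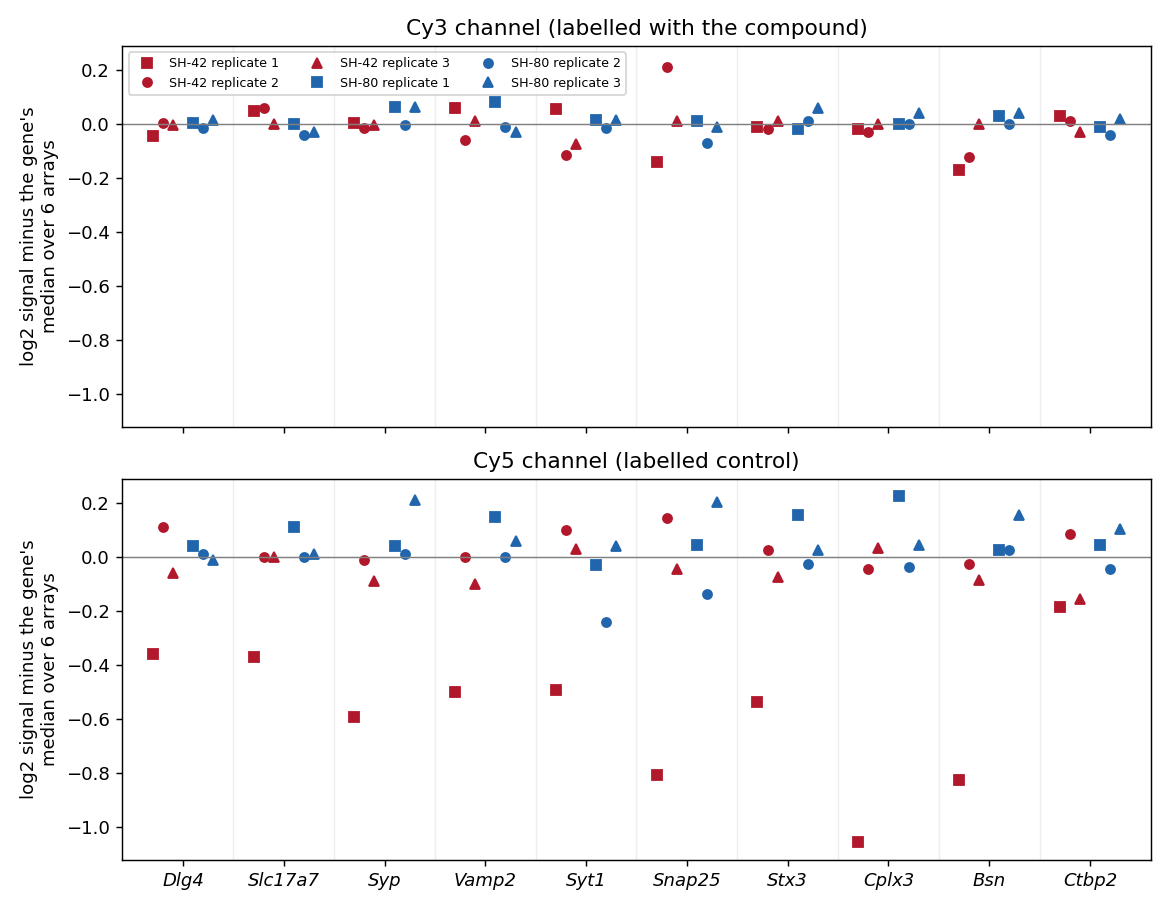
Log2 signal of each gene in the Cy3 channel (upper panel) and the Cy5 channel (lower panel), minus the gene's median over 6 arrays, with SH-42 arrays in red to the left of SH-80 arrays in blue. Cy3 points of the members lie close to 0 on all arrays, with the largest range 0.353 for Snap25, while the Cy5 signal of SH-42 replicate 1 lies lowest for all 10 genes.

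The compounds were given at the same dose and time, and SH-42 minus SH-80 sets their arrays against each other. None of the 10 members passed the test, as none of the 24060 genes did (0%), and none had an unadjusted p under 0.05, against 942 of all genes (3.92%). The 10 members' adjusted p-values ran from 0.691 to 0.998. Differences were largest for Cplx3 (0.41, 95% interval -0.30 to 1.11), Snap25 (0.32, -0.13 to 0.77) and Syp (0.27, -0.13 to 0.68). They were smallest for Dlg4 (0.10, -0.19 to 0.38) and Syt1 (-0.00, -0.51 to 0.50). These intervals allow differences of either sign, so that neither a difference nor its absence is shown.

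The estimate was above 0 for 9 of the 10 members, against 53.6% of all genes, with a median of 0.238. This median depended on the normalization and on 1 array. Median centring in place of loess brought it to 0 (-0.08 over all genes), and scale between arrays to 0.01 (-0.01 over all genes). A fixed slide block gave 0.11 (0.01 over all genes). The other settings that kept all 6 arrays gave 0.23 to 0.28. Without SH-42 replicate 1 the members' median was 0.0652, and the estimates ran from -0.24 (Syt1, 95% interval -0.48 to 0.00) to 0.12 (Snap25, -0.12 to 0.37). For Cplx3 it was 0.06 (-0.18 to 0.30), and for Dlg4 -0.02 (-0.21 to 0.18). On the slide that holds both compounds, SH-42 replicate 3 minus the mean of the 3 SH-80 arrays was small. It was -0.18 for Syt1 and ran from 0.03 (Cplx3) to 0.17 (Vamp2 and Ctbp2) for the others. The fixed slide block estimates this same difference, so that its medians of 0.11 for the members and 0.01 over all genes are not a separate result. Both rest on 1 SH-42 array.

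**Figure D4:**
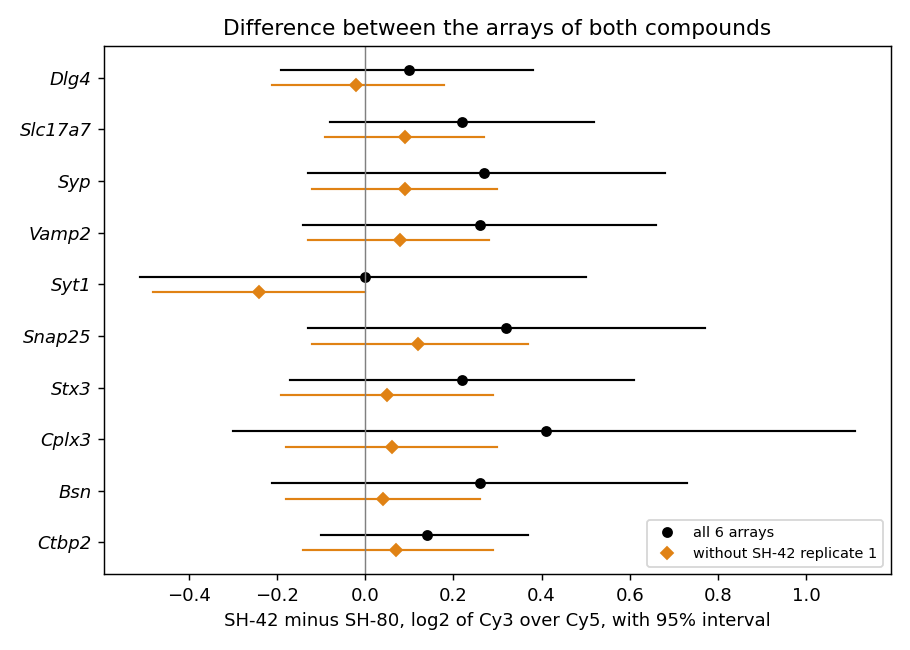
SH-42 minus SH-80 for each gene, in log2 of Cy3 over Cy5, with the 95% interval of the model over all 6 arrays (black circles) and without SH-42 replicate 1 (orange diamonds). All intervals over 6 arrays reach across 0, and 9 of 10 estimates move towards 0 or past it without that array, while Syt1 moves from -0.00 to -0.24.

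Set channel by channel, no member's Cy3 or Cy5 signal differed between SH-42 and SH-80 arrays in the test, and no other gene's did (0% in both). At an unadjusted p under 0.05, 2235 genes (9.29%) differed in Cy3 and 870 (3.62%) in Cy5. The members' Cy3 differences ran from -0.12 (Bsn) to 0.06 (Slc17a7), above 0 for 3 of 10 (38.4% of all genes). Bsn alone among them did not overlap in Cy3, at 11.04, 11.09 and 11.21 on the SH-42 arrays, against 11.24, 11.21 and 11.25 on SH-80 arrays, with SH-42 below, as 10.6% of all genes were, while 5.65% lay wholly above. In Cy5 all 10 differences were below 0, from -0.44 (Cplx3) to -0.04 (Syt1), while 43.8% of all genes were above 0. Bsn and Syp did not overlap there, with SH-42 below (8.63% of all genes, and 4.66% wholly above).

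The members' log ratios ran together over the 6 arrays, and for most pairs less so without SH-42 replicate 1. Among the 45 pairs of members Pearson's r had a median of 0.909 (0.666 to 0.988) over 6 arrays, and a median of 0.178 (-0.648 to 0.994) without SH-42 replicate 1. The points share their arrays and the loess curve of each, and r is given as a description. Among 15907 other named genes, those whose log ratios were most like the mean of the members over 6 arrays were Dgkh (r = 0.9992), which encodes a diacylglycerol kinase, Aak1 (0.9991), a kinase that acts on the clathrin adaptor AP2, Ryr2 (0.9989), a calcium release channel, Lrch2 (0.9989) and Kcnk3 (0.9987), a potassium leak channel. All 5 were highest on SH-42 replicate 1, which follows from their choice, since the members' mean is highest there. Of all genes, 36.8% were highest on that array. Ryr2, for example, was at 1.07, against 0.01 and 0.18 on SH-42 replicates 2 and 3 and 0.01, 0.11 and -0.01 on SH-80 arrays.

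Other synapse genes were listed by role, apart from the members. For SH-42 against control, 0 of 26 other vesicle genes, 0 of 22 fusion genes, 0 of 18 ribbon and active zone genes, 1 of 17 endocytosis genes and 0 of 28 scaffold and adhesion genes passed the test (0.599% of all genes). The list medians were 0.111, 0.124, 0.0691, -0.00374 and 0.0653 in that order, with -0.0335 over all genes. Without SH-42 replicate 1 each of the 5 medians was below 0, from -0.113 (vesicle) to -0.0394 (fusion), against -0.026 over all genes. SH-42 minus SH-80 gave medians of 0.255, 0.141, 0.2, 0.162 and 0.17, against 0.0151 over all genes, with no call. Without that array they were 0.00941, 0.00891, 0.0584, 0.0637 and 0.0323. All 18 active zone genes had an estimate above 0 with the array, and 13 of 18 had one without it.

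For SH-80 against control, 2 of 26 vesicle, 2 of 22 fusion, 0 of 18 active zone, 3 of 17 endocytosis and 3 of 28 scaffold genes passed, against 14.6% of all genes. Lower in Cy3 were Dnajc5 (-0.59 ± 0.116, adjusted p = 0.0324), the vesicle chaperone CSPα, and Sv2c (-0.60 ± 0.13, adjusted p = 0.0365), a vesicle glycoprotein. So were Snap23 (-0.52 ± 0.0818, adjusted p = 0.0272), a SNARE gene related to Snap25, and Doc2b (-0.33 ± 0.0597, adjusted p = 0.029), which encodes a calcium sensor. Snap23, Dnajc5 and Sv2c have further probes with smaller values, -0.15 for Snap23, -0.24 and -0.13 for Dnajc5 and -0.03 for Sv2c.

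Of the endocytosis genes, Ap2m1 (-0.44 ± 0.0909, adjusted p = 0.0337), a subunit of the clathrin adaptor, was lower in Cy3, but its other probes gave 0.06 and 0.10. Itsn1, a scaffold of endocytosis, was the one synapse gene outside the members called for both compounds, at -0.62 ± 0.0853 for SH-42 (adjusted p = 0.0488) and -0.81 ± 0.0853 for SH-80 (adjusted p = 0.0156). Both comparisons rest on the brightest of 7 probes, and the other 6 ran from -0.26 to 0.63 for SH-80 and from -0.23 to 0.45 for SH-42. Averaged over its probes it was called for neither (-0.05 for SH-42 and -0.09 for SH-80). Ap2b1, another subunit of the adaptor, was higher in Cy3 (0.41 ± 0.0988, adjusted p = 0.0445).

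Of the scaffold genes, Homer3, which links glutamate receptors to other scaffolds, was lower (-0.34 ± 0.064, adjusted p = 0.0296). Elfn1, an adhesion gene of the rod synapse, was lower as well (-0.32, adjusted p = 0.0372), and Pick1, a PDZ protein that binds glutamate receptors, was higher (0.29 ± 0.0587, adjusted p = 0.0326). These 10 calls for SH-80 were lost when any one SH-80 array was left out, as were those of all other genes. Without SH-42 replicate 1 the counts were larger, at 2 higher and 8 lower of 26 vesicle genes, 2 and 6 of 22 fusion genes, 0 and 4 of 18 active zone genes, 2 and 6 of 17 endocytosis genes and 5 and 7 of 28 scaffold genes, while 38.8% of all genes were called.

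For SH-42 minus SH-80 no gene of the other synapse lists passed the test, and the genes with the smallest p ran both ways. In the active zone list the 4 smallest p belonged to genes above 0, among them Cacna1f, the calcium channel of photoreceptor terminals (0.38 ± 0.126, unadjusted p = 0.0216, adjusted p = 0.691). Its log ratios were 0.49, 0.11 and 0.07 on the SH-42 arrays, against -0.17, -0.13 and -0.17 on SH-80 arrays, which do not overlap, as was so in this direction for 8.08% of all genes. Rims2, an active zone scaffold, gave 0.63, -0.10 and 0.04 on the SH-42 arrays, against -0.29, -0.10 and -0.12 on SH-80 arrays (0.36 ± 0.197, adjusted p = 0.691).

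In the fusion list 2 of the 4 smallest p belonged to genes above 0 and 2 to genes below it. Unc13b, a priming factor, gave 0.67, 0.05 and 0.03 on the SH-42 arrays, against -0.23, -0.09 and -0.36 on SH-80 arrays (0.48 ± 0.191, adjusted p = 0.691). Snap29, a SNARE gene of intracellular membranes, went the other way, with -0.70, -0.29 and -0.11 on the SH-42 arrays, against -0.02, -0.08 and 0.04 on SH-80 arrays (-0.35 ± 0.157, adjusted p = 0.691). Stx7, a syntaxin of endosomes, was below 0 as well (-0.18 ± 0.0966, adjusted p = 0.691). All 4 genes whose values are given by array lay farthest from 0 on SH-42 replicate 1. The other genes among the 4 smallest p of each synapse list were split. Napa and Stx7 (fusion), Syt3, Syngr3 and Atp6v0a1 (vesicle), Itsn2 and Dnm1 (endocytosis) and Mpp4 (scaffold) were also farthest from 0 there. Ppfia1 and Ppfia4 (active zone), Sv2c (vesicle), Ap2a1 and Bin1 (endocytosis) and Pick1, Elfn1 and Homer3 (scaffold) lay farther from 0 on another array.

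Markers of the cells that use these synapses moved with the members on SH-42 replicate 1. The log2 of the summed Cy5 signal on that array, against its range on the other 5, was 17.00 against 17.47 to 17.69 for the members, 16.99 against 17.69 to 17.97 for bipolar markers, 15.43 against 16.14 to 16.40 for amacrine markers, 15.07 against 16.10 to 16.40 for ganglion cell markers and 20.18 against 20.65 to 20.83 for rod markers. All 15 rod, 12 amacrine and 12 ganglion cell markers and 14 of 15 bipolar markers had their lowest Cy5 signal there, as all 10 members did. The opposite held for glia: 18.54 against 17.50 to 17.82 for Müller glia markers and 17.43 against 15.89 to 16.48 for microglia markers. In Cy3 the same sums of bipolar markers lay between 17.68 and 17.71 on all 6 arrays, and those of the members between 17.45 and 17.50. Ganglion cell markers lay between 16.04 and 16.06. The Cy3 sums of the other lists were at an extreme on SH-42 replicate 1. Rod (20.69 against 20.47 to 20.56) and amacrine markers (16.16 against 16.09 to 16.13) were highest there. Müller glia (17.42 against 17.57 to 17.66) and microglia markers (16.26 against 16.29 to 16.42) were lowest there.

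Markers of tissue next to the retina varied in Cy5 too. Skeletal muscle markers summed to log2 14.95 on SH-42 replicate 1 and 15.08 on SH-80 replicate 2, against 12.36 to 12.55 on the other 4 arrays. Lens markers ranged from 17.16 (SH-80 replicate 1) to 20.19 (SH-80 replicate 2) over the arrays, and pigment epithelium markers from 15.43 to 16.60. The part of other cells or tissues in the members' values was not tested.

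**Figure D5:**
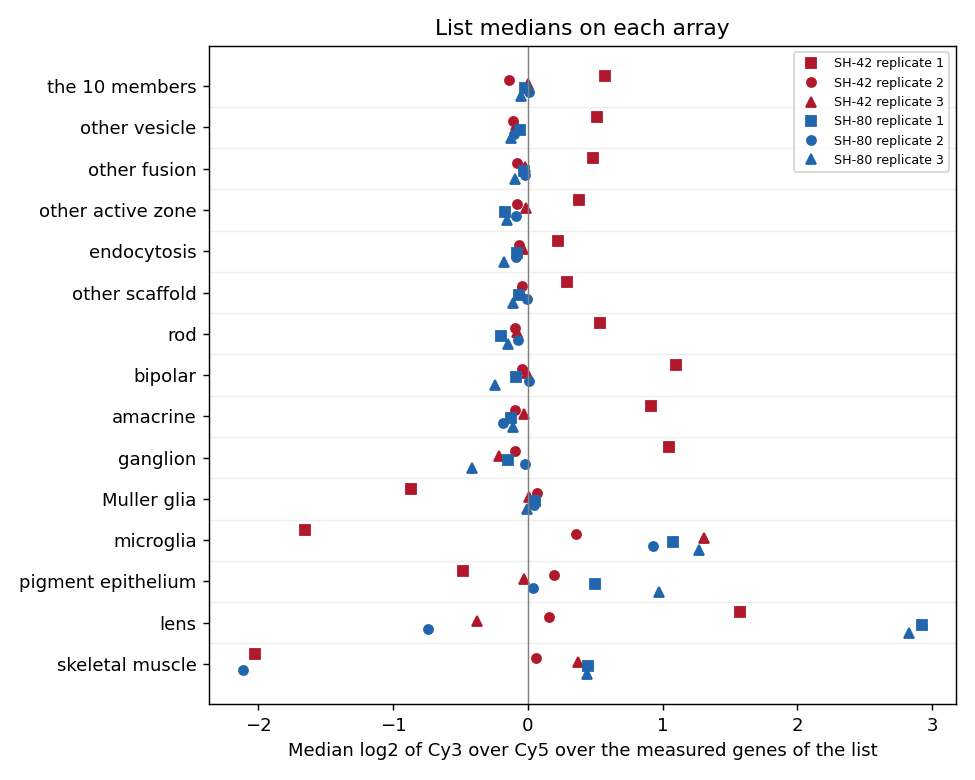
Median log2 of Cy3 over Cy5 over the measured genes of each list on each array, with SH-42 arrays in red above SH-80 arrays in blue. On SH-42 replicate 1 the members (0.569), the 4 lists of retinal neurons (0.533 to 1.1) and the lens list (1.57) are high while Müller glia (-0.866), microglia (-1.65) and muscle (-2.02) are low, and on the other 5 arrays the members lie between -0.141 and 0.00565. Lens is higher still on SH-80 replicates 1 and 3 (2.92 and 2.83), and muscle is low on SH-80 replicate 2 too (-2.11).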

How the data were processed

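Total RNA of pooled mouse retinas was hybridised to 6 two-colour arrays. Per the file headers, the authors' scanner files hold spot and background intensity in both channels and a log10 ratio of the processed red over green signal, and name Agilent Feature Extraction 11.0.1.1. Another version, 9.3.2.1, stands in the submitters' processing notes. The deposited value table holds log2 of processed Cy5 over Cy3 plus a constant per array, as found from its values (99.7% of each column's values deviate by less than 0.01). Its 6 columns have medians between -0.0754 and -0.0464. Scale and centring were thus settled, and direction was not.

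From the scanner files, median signals were corrected by normexp (offset 50) and normalized by loess within each array, with 1377 control spots left out. Probes had to exceed background on 3 or more arrays, in Cy3 or Cy5, and 9972 of 39429 did not. Of the probes, 26055 (66.1%) matched a symbol through RefSeq. The brightest probe stood for a gene, and 24060 features were tested, 15917 of them with a symbol. In limma 3.58.1 (R 4.3.3), lmFit and eBayes estimated a coefficient for each compound from all 6 arrays, with two-sided p-values adjusted by Benjamini-Hochberg over all features. A feature passed, or was called, at an adjusted p under 0.05. Channel signals were taken after Aquantile normalization and tested in the same way.

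The members and the lists were chosen with earlier results of these data known. Genes named besides the members are, per list, up to 4 by smallest p in SH-42 minus SH-80 and up to 2 in each comparison with control, and the 5 genes most like the members' mean. The precision is limited by having 3 arrays per compound. The model was tested on simulated data. The deviations of same-numbered arrays of both compounds from the mean of their group correlated at r = -0.154, -0.431 and 0.181. With 3 arrays per group, such values cannot settle whether the numbers pair the arrays. The main model did not use the numbers. The values differed in each of the 15 pairs of arrays. Alternatives covered background, normalization, source, filter, probe choice, variance prior, slide, replicate block and each array left out. Scanner text was parsed by data.table (1.17.8) and sample labels by jsonlite (2.0.0), and the plots come from matplotlib (3.10.9) under Python 3.11.15 with pandas 2.3.3.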

Additional observations from a re-analysis of the deposited data

Results flagged for a closer look

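In 6 of the 10 genes the log2 Cy5 signal, labelled control on all 6 arrays, had its lowest value so far from the others that the gap, as a share of the whole range, passed Dixon's 95% limit for 6 samples. In each the array was SH-42 replicate 1: Cplx3 at 11.64 (0.788 of the range), Slc17a7 at 11.84 (0.76), Bsn at 10.48 (0.752), Stx3 at 12.99 (0.667), Snap25 at 14.68 (0.659) and Dlg4 at 10.73 (0.654). Syp (0.619) and Vamp2 (0.618) came just under the limit, Syt1 (0.431) and Ctbp2 (0.0985) further below. Chance flags about 1 in 20 such groups where the arrays are alike, and SH-42 replicate 1 stood apart across all genes. The 10 genes share their arrays, so that these are not separate observations. The limit was applied to the members alone, and the share of all genes past it is not known. Of all genes, 43.2% had their lowest Cy5 signal on that array.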

How the results depend on the processing

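The number of members passing SH-42 minus SH-80 was 0 in all 19 alternatives, and that of either channel 0 in all 9. For SH-42 against control it was 0, and 4 with median centring (37.5% of all genes) and 2 with no background correction (13.2%). It was 1 each with processed signals (13.4%) and with the deposited value table (15.7%). With an array left out it was 0 to 1 (1 without SH-42 replicate 1, against 1.78% of all genes). For SH-80 against control it was 2. It was 0 with eBayes trend and robust, with the replicate block and with slide as a fixed block (0% of all genes in each). It was also 0 with scale between arrays (2.97%), and 1 each with slide as a random block (9.85%), offset 0 (11%) and processed signals (18.1%). With the SH-80 arrays fitted alone it was 6 (38.2%), and with an array left out 0 to 8. It was 0 without any one SH-80 array (0%), 8 without SH-42 replicate 1 (38.8%) and 1 when SH-42 replicate 3 was dropped (13.2%). Under the replicate block no gene was called for SH-80 (7148 at an unadjusted p under 0.05), and 1 of 3 numbers correlated best with itself. Over all genes, calls ranged from 0 to 9030 for SH-42 and from 0 to 9336 for SH-80, with 144 and 3523 as reported, and the share higher in Cy3 among calls moved from 9.03% to 36.6% for SH-42 with no background correction. Signal over background did not limit the members, each above it on all 6 arrays, and the 3 arrays per compound limit the precision.

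Some values changed sign, and none of those below passed the test with its turned sign. For SH-42 against control, median centring gave Bsn -0.30, Slc17a7 -0.17, Syt1 -0.50, Vamp2 -0.15, Cacna1f -0.31, Dlgap4 -0.23, Mpp4 -0.30 and Scamp5 -0.19. For SH-80 it gave Cplx3 -0.08, Slc17a7 -0.19, Syt1 -0.20 and Vamp2 -0.14. For SH-42 minus SH-80 it gave Ap2a1 -0.01, Bin1 -0.05, Ctbp2 -0.11, Dlg4 -0.07, Itsn2 -0.03, Napa -0.03, Stx3 -0.01 and Vamp2 -0.00. Scale between arrays gave Bsn -0.08 for SH-42, and Ap2a1 -0.02, Ctbp2 -0.14, Snap25 -0.01, Stx3 -0.04 and Syp -0.04 for SH-42 minus SH-80. Processed signals gave Stx3 0.01 for SH-42 and Syt1 0.02 for SH-42 minus SH-80. In Cy3, quantile normalization gave Dlg4 0.01 and Vamp2 0.01, and none between arrays gave Ctbp2 -0.04 and Slc17a7 -0.01. With an array left out, values ran for SH-42 from -0.10 to 0.28 (Bsn), -0.21 to 0.07 (Stx3), -0.27 to 0.03 (Syp) and -0.04 to 0.34 (Syt1), for SH-42 minus SH-80 from -0.02 to 0.19 (Dlg4) and -0.24 to 0.14 (Syt1), for Cy3 from 0.00 to 0.03 (Ctbp2), -0.04 to 0.13 (Snap25) and -0.04 to 0.02 (Vamp2), and for Cy5 from -0.22 to 0.02 (Dlg4), -0.46 to 0.01 (Snap25) and -0.15 to 0.14 (Syt1). The cause was not tested.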
